A study of Mus musculus with 2 samples.

Results

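Cycling CD8 T cells are cytotoxic T lymphocytes that were captured while copying or dividing their genome. They were taken here from the live cells of subcutaneous MC38 tumors by counts of unique molecular identifiers (UMIs), each of which stands for 1 captured RNA molecule. A cell was a member when it held at least 500 genes, at least 1000 UMIs and no more than 15% mitochondrial UMIs, at least 2 UMIs of Cd3e, Cd3d and Cd3g together, at least 1 of Cd8a and Cd8b1, none of Cd4 or Foxp3, no more than 2 of the macrophage genes C1qa, C1qb and C1qc, and at least 2 of the cycle genes Mki67, Top2a, Cdk1 and Birc5. The members were thus chosen by measured values, the raw UMIs of these gate genes. The rule found 283 cells among the 25402 kept cells. Lmo7+/+ tumors gave 112 members of 13542 kept cells, and Lmo7-/- tumors 171 of 11860. CD8-gated T cells with no UMI of the 4 cycle genes are called resting below, which says only that none was captured. They numbered 117 and 232 cells, and the 55 and 63 CD8-gated cells with exactly 1 cycle UMI were in neither set.

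The study asked how loss of LMO7, a LIM-domain and E3 ubiquitin ligase protein, alters the immune cells of a tumor. Both groups were female young adult mice of the C57BL/6 background, either wild type (Lmo7+/+) or with a genomic knockout in every tissue (Lmo7-/-), and both received MC38 cells, a mouse colon cancer line that itself carries no Lmo7 deletion. Live tumor cells were sorted by flow cytometry and run on the 10x Genomics droplet platform as 1 library per genotype, and how many mice went into a library is not given in the sources used here. With 1 library per genotype there is no replicate, so a genotype difference cannot be told apart from a difference between mice, tumors or libraries, no test across conditions was possible, and every interval below is a 95% interval that covers counting error only.

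The 112 Lmo7+/+ members held 671554 UMIs and the 171 Lmo7-/- members held 861236. Median depth was 4346.5 and 4283 UMIs per cell, with 1944.5 and 1837 genes and 5.50% and 5.52% mitochondrial UMIs. The medians were close, while the upper quartile was 6859.8 UMIs in Lmo7+/+ and 6259 in Lmo7-/-. The shallowest and deepest members held 1032 and 37292 UMIs in Lmo7+/+ and 1027 and 24033 in Lmo7-/-. Resting CD8 T cells were shallower, with medians of 1968 and 1969.5 UMIs. Doublets were not called or removed, and whether the deepest members held RNA of more than 1 cell was not tested. The libraries shared 279 cell barcodes, carried by 1 Lmo7+/+ and 8 Lmo7-/- members, and no barcode belonged to a member in both.

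The markers fitted the label. All 16 genes of a T cell identity list were detected in each library, and their summed level was 5571 counts per 1000000 UMIs (CPM) in Lmo7+/+ and 6682 CPM in Lmo7-/- members, against 415 and 445 CPM in cells of the macrophage gate (at least 10 C1q UMIs and no Cd3 UMI). Trbc2, a constant region of the T cell receptor beta chain, gave the most UMIs of that list, with 759 and 1101 counts. Cd8a, the coreceptor chain that binds MHC class I (chr6:71373427-71379173 in GRCm38), stood at 806 CPM in Lmo7+/+ and 932 CPM in Lmo7-/- members, and Cd8b1 at 581 and 651 CPM. In macrophage-gate cells Cd8a was at 0.306 and 0.938 CPM. The gate itself used Cd8a, Cd8b1 and the Cd3 genes, so these values describe the selection. The natural killer and gamma delta T cell list of 11 genes summed to 424 CPM in Lmo7+/+ and 272 CPM in Lmo7-/- members, against 25.1 and 27.6 CPM in macrophage-gate cells. Its most abundant gene was Tcrg-C2, a constant region of the gamma chain, with 207 and 184 counts (308 and 214 CPM). Ncr1, Klra8, Trdv4, Il17a and Cd163l1 had 0 counts in the members of both libraries, and the delta chain gene Trdc had 0 in Lmo7+/+. The part of gamma delta T cells in the results was not tested.

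RNA of genes known from other cell types was counted in some members. The macrophage and monocyte list summed to 1266 CPM in Lmo7+/+ and 1000.0 CPM in Lmo7-/- members, against 18625 and 24073 CPM in macrophage-gate cells, and its most abundant gene was Ly6c2, which CD8 T cells also express. Chil3 was at 0 in both, and Fcgr1 was at 0 in Lmo7-/-. The dendritic cell list, led by the MHC class II genes H2-Aa in Lmo7+/+ and H2-Ab1 in Lmo7-/-, summed to 2901 CPM in Lmo7+/+ and 1667 CPM in Lmo7-/- members (log2 ratio -0.80, -0.90 to -0.70), while Cd209a was at 0 in both and Xcr1 and Clec9a were at 0 in Lmo7-/-. B cell genes summed to 58.1 and 48.8 CPM. Tumor, fibroblast and endothelial genes, led by Sparc, summed to 1354 CPM in Lmo7+/+ and 509 CPM in Lmo7-/- members, and 453 of the 909 Lmo7+/+ UMIs lay in a single cell. The keratin and claudin genes Krt8, Krt7, Cldn4 and Cldn7 were at 0 in the members of both libraries. When the 10 and 13 members with at least 5 UMIs of that list were left out, a choice made after seeing the data, its sum was 147 CPM in Lmo7+/+ and 91.5 CPM in Lmo7-/-.

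A CD8 T cell that meets its antigen enters the cell cycle through D cyclins with CDK4 and CDK6, which lift the retinoblastoma protein off the E2F factors. E2F then drives the genes of DNA replication and nucleotide supply, and later the DREAM and MMB complexes with FOXM1 drive the genes of mitosis through CHR and CCAAT elements in their promoters. In tumors, dividing CD8 T cells are known to sit between stem-like cells that carry Tcf7 and effector or exhausted cells that carry granzymes and inhibitory receptors such as PD-1.

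The cycle genes that chose the members varied widely from cell to cell. Exactly 2 cycle UMIs were found in 19 Lmo7+/+ and 26 Lmo7-/- members, which lie just inside the threshold, and 1 cycle UMI in the 55 and 63 cells just outside it. At the other end 42 and 58 members held 10 or more. The median was 8 cycle UMIs in Lmo7+/+ and 7 in Lmo7-/-, and the highest 44 and 59. Summed over members, Mki67, the proliferation antigen that coats mitotic chromosomes, stood at 375 and 352 CPM, Top2a, the topoisomerase that untangles sister chromatids, at 832 and 906 CPM, Birc5, the survivin subunit of the chromosomal passenger complex, at 302 and 294 CPM, and Cdk1, the kinase that starts mitosis, at 177 and 281 CPM.

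The members spanned replication and mitosis. Per 10000 UMIs, the median member held 50.3 UMIs in Lmo7+/+ and 49.5 in Lmo7-/- of a 46-gene list for G1/S and S phase, and 61.4 and 69.8 of a 61-gene list for G2 and mitosis. The medians of resting cells were 12.2 and 12.6 for the first list and 8.98 and 9.67 for the second. More G2 and mitosis UMIs than S phase UMIs were counted in 58 of 112 Lmo7+/+ members (51.8%, exact binomial interval 42.1 to 61.3%) and in 100 of 171 Lmo7-/- members (58.5%, 50.7 to 66.0%), intervals that overlap. The split is a cut on a continuous range: the 2 sums lay within 1.5 times of each other in 24.1% and 25.7% of members.

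**Figure D1:**
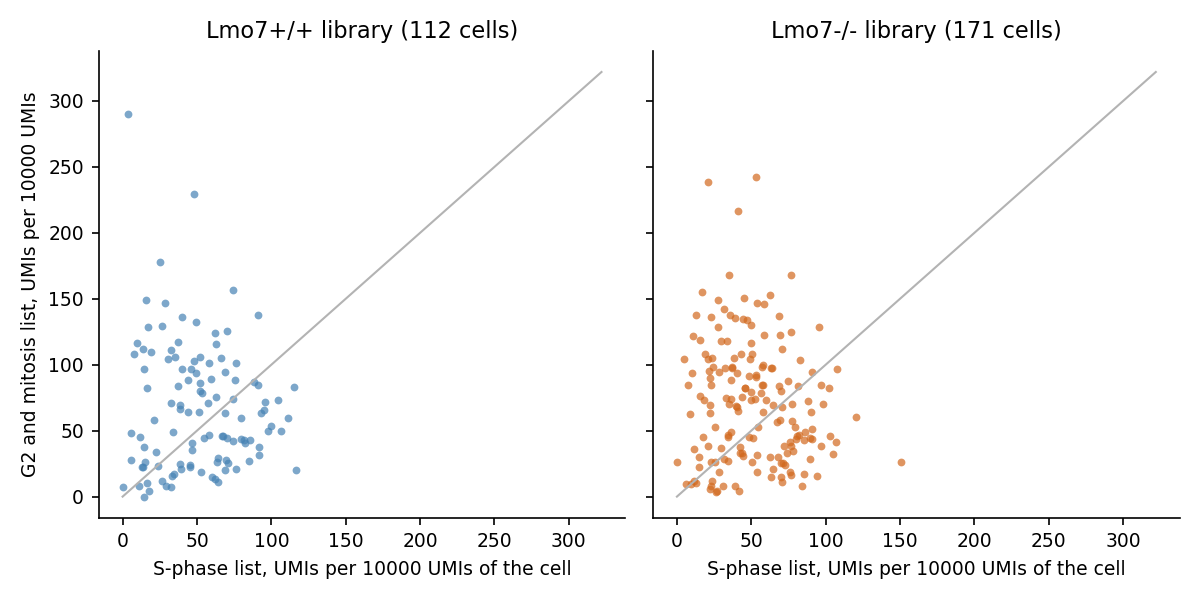
Cell cycle RNA in each cycling CD8 T cell, 112 of the Lmo7+/+ library on the left and 171 of the Lmo7-/- library on the right. The x axis is UMIs of the 46-gene G1/S and S phase list and the y axis UMIs of the 61-gene G2 and mitosis list, both per 10000 UMIs of the cell, each point is 1 cell, and the line marks equal values. The clouds of both libraries overlap on either side of the line, reaching 116 on the x axis and 290 on the y axis in Lmo7+/+ and 151 and 242 in Lmo7-/-, around medians of 50.3 and 61.4 in Lmo7+/+ and 49.5 and 69.8 in Lmo7-/-.

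Genes of mitosis, replication and nucleotide supply were far higher in cycling than in resting CD8 T cells in each library. The rule chose the cells by 4 cycle genes, whose parts, given above, lie in mitosis and chromatid separation. This contrast is therefore a description of what travels with them, and no test was made. Of 6103 genes with enough counts, 293 (4.8%) were at least 2-fold higher in cycling cells in both libraries and 65 (1.07%) at least 2-fold lower. The median gene had a log2 ratio of 0.08 in Lmo7+/+ and 0.00 in Lmo7-/-. The members were also deeper than the resting cells, as given above, and the part of depth in these ratios was not tested. Macrophage and dendritic cell markers were higher in the resting cells: the macrophage and monocyte list summed to 2151 CPM in resting and 1266 CPM in cycling Lmo7+/+ cells and to 1980.0 and 1000.0 CPM in Lmo7-/- cells, and the dendritic cell list to 4222 and 2901 CPM and to 4028 and 1667 CPM. Other lists did not share this direction in both libraries. Tumor, fibroblast and endothelial genes summed to 359 CPM in resting and 1354 CPM in cycling Lmo7+/+ cells, and to 1073 and 509 CPM in Lmo7-/- cells. The natural killer and gamma delta list was nearly level, at 419 and 424 CPM and at 266 and 272 CPM. B cell genes summed to 95.1 and 58.1 CPM and to 45.8 and 48.8 CPM. The part of these markers in the cycling over resting ratios was not tested.

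The full G2 and mitosis list, of 67 genes, had the largest share of such genes among the lists with at least 10 genes. Of its 60 measured genes 57 were at least 2-fold higher in both libraries, with median log2 ratios of 2.82 and 3.22. Ccna2, the A-type cyclin that partners CDK2 and CDK1, had the largest ratio among the genes ranked by the smaller of their 2 ratios. It had 2 counts in resting and 181 in cycling Lmo7+/+ cells, and 7 and 282 in Lmo7-/- cells (log2 5.26 and 4.67). Prc1, which bundles the microtubules of the spindle midzone, went from 1 to 61 counts and from 3 to 115 (4.69 and 4.60). Cenpf, a kinetochore protein, went from 1 to 55 counts and from 2 to 96 (4.54 and 4.93). These are large ratios from near-empty resting cells, so their intervals are wide, 2.00 to 9.87 for Cenpf in Lmo7+/+. Cdc20, the activator of the anaphase-promoting complex, had 1 and 71 counts and 3 and 72 counts (4.91 and 3.93). The spindle assembly factor Tpx2 gave log2 ratios of 4.51 and 4.42, the passenger complex subunit Cdca8 4.04 and 4.25, the kinesin Kifc1 3.89 and 5.04, and the kinetochore scaffold Knl1 3.85 and 3.99.

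Replication genes had smaller ratios than those of mitosis. In resting cells, at least 5 UMIs of the G1/S and S phase list were held by 31.6% in Lmo7+/+ and 30.2% in Lmo7-/-. For the 61-gene G2 and mitosis list the shares were 12.0% and 13.8%. The part of the choice of gate genes in this order was not tested. In the G1/S and S phase list 30 of 41 measured genes were at least 2-fold higher in both libraries, with a median log2 ratio of 1.54 in each. Pcna, the sliding clamp of DNA polymerases, was at 229 CPM in resting and 666 CPM in cycling Lmo7+/+ cells, and at 306 and 690 CPM in Lmo7-/- cells (log2 1.54 and 1.17). Mcm5, a subunit of the replicative helicase, was at 95.1 and 259 CPM, and at 91.6 and 218 CPM (1.45 and 1.25). The clamp-associated factor Pclaf ranked with the mitotic genes, with 5 and 382 counts in Lmo7+/+ and 26 and 583 in Lmo7-/- cells (5.01 and 3.83). Among 15 measured genes of deoxynucleotide synthesis 10 were at least 2-fold higher in both. Rrm2, the regulated subunit of ribonucleotide reductase, had 0 counts in resting and 209 in cycling Lmo7+/+ cells, at least 4.88 on the log2 scale when 3 counts are taken as the floor, and 10 and 368 in Lmo7-/- cells (4.54). Tyms, which makes thymidylate, gave 2.96 and 2.93.

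Promoters of 3 of these genes are shown because the elements that cell cycle factors are known to read lie within them. Each window runs from 250 bases before to 50 bases after a RefSeq start site on GRCm38.p6, is printed 5′ to 3′ along the gene, and is in lower case with the matches in capitals. The motifs were searched on both strands: the CHR, spelled TTTGAA; the CCAAT box, spelled by its name; and E2F sites, spelled TTTGGCGC, TTTCCCGC, TTTGCCGC or TTTCGCGC. No search word contains another, and a match on the opposite strand appears as its reverse complement. The Cdc20 window, chr4:118437294-118437593 on the minus strand, holds a CHR match with its first base at -18 from the start site and CCAAT matches at -53 and -8. The Cenpf window, chr1:189688037-189688336 on the minus strand, holds a CHR match at 2 and CCAAT matches at -132 and -71. The Pclaf window, chr9:65890073-65890372 on the plus strand, holds an E2F match at -5 and CCAAT matches at -66 and -41.
Cdc20: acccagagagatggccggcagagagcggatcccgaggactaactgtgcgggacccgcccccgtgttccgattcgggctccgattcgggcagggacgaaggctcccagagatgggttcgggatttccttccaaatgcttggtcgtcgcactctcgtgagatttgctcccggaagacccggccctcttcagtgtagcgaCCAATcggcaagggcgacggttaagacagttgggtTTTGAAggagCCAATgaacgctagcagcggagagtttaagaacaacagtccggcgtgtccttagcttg
Cenpf: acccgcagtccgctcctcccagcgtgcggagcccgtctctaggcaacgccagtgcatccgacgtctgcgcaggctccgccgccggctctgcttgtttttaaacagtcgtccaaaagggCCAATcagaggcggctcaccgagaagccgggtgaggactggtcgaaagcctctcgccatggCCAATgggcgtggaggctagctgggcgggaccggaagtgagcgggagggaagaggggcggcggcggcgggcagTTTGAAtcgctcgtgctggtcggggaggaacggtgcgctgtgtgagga
Pclaf: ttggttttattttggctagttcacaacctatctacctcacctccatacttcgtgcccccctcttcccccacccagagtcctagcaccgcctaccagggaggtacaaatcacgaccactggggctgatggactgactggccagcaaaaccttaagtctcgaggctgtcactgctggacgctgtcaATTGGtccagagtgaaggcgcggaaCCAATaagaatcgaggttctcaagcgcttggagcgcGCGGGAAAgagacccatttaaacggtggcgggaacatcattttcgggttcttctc
The same letters were counted in every window of the table. CHR was found in 67.2% of 58 windows of the G2 and mitosis list, which covered 53 of its 67 genes, against 17.9% of all 32851 windows, and CCAAT in 75.9% against 37.4%. Both motifs together were in 58.6% against 6.95%. An E2F match was in 34.9% of 43 windows of the G1/S and S phase list, which covered 37 of its 46 genes, against 2.26% of all windows. None of the 16 windows of the deoxynucleotide synthesis list, Rrm2 among them, held an E2F match in these letters. The windows of the cytotoxic effector genes held CHR in 13.0%. Ccna2 and Tpx2 were not in the promoter table. A match describes the letters and is not a shown binding site.

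Regulators of entry and exit did not all move with the cycle. Cdk2, the S phase kinase, was at least 2-fold higher in cycling cells in both libraries (log2 2.40 and 1.43), as were the CDK4/6 inhibitors Cdkn2c (2.22 and 1.48) and Cdkn2d (1.08 and 1.21), at 22 to 62 counts each in the members. Cdkn1b, the inhibitor p27 of resting lymphocytes, was at 225 CPM in resting and 124 CPM in cycling Lmo7+/+ cells and at 223 and 116 CPM in Lmo7-/- cells (-0.87 and -0.94), short of the 2-fold mark. Txnip, a glucose uptake inhibitor, gave -1.24 and -1.41, and Mxd4, an antagonist of Myc, -1.36 and -1.82. Myc itself had 28 and 37 counts in the members, with log2 ratios of 0.40 and 0.64 whose intervals spanned 0. Of 14 measured inhibitor and exit genes 2 were at least 2-fold higher and 1 lower in both libraries, and of 9 genes of the D cyclin, CDK4/6 and Myc list 1 was higher and 1 lower, against 4.8% and 1.07% of all measured genes.

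Lists of T cell function had median cycling over resting ratios below 0 in both libraries, with few members past 2-fold. The 18 measured cytotoxic effector genes had median log2 ratios of -0.59 in Lmo7+/+ and -0.31 in Lmo7-/-, with none past 2-fold in both. They did not all lie on 1 side: Gzmb, the granzyme B gene, gave -0.63 in Lmo7+/+ and 0.17 in Lmo7-/-, and the granzyme gene Gzmc -0.86 and 0.04. The checkpoint list had medians of -0.67 and -0.76, with Lgals3, a galectin also made by macrophages, the only 1 of 12 past 2-fold lower in both (-1.43 and -1.30). Pdcd1, which encodes PD-1, was at 584 CPM in resting and 363 CPM in cycling Lmo7+/+ cells, and at 667 and 500.4 CPM in Lmo7-/- cells. T cell identity genes had medians of -0.60 and -0.46: Cd3e went from 1282 to 777 CPM and from 1379 to 899.9 CPM. Among costimulatory receptors Icos (-1.33 and -1.08) and Slamf7 (-1.71 and -1.31) were at least 2-fold lower in both libraries, against 1.07% of all measured genes.

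The 10 genes with the lowest cycling over resting ratios included the interferon-stimulated genes Ifit3 and Ifit1, the integrin gene Itgae and the chemokine gene Ccl5. Ifit3 had 17 counts in resting and 5 in cycling Lmo7+/+ cells and 21 and 7 in Lmo7-/- cells (log2 -3.01 and -2.24), and Ifit1 gave -2.01 and -1.76. In the type I interferon list 3 of 20 measured genes were at least 2-fold lower in both libraries and none higher, against 1.07% and 4.8% of all measured genes, with medians of -0.62 and -0.73, beside the macrophage and dendritic cell sums given above, which were also lower in cycling cells. Itgae, the CD103 integrin of resident T cells, gave -1.59 and -3.05 from 14 and 21 resting counts. Ccl5, a chemokine of effector T cells, was at 1377 CPM in resting and 368 CPM in cycling Lmo7+/+ cells, and at 1245 and 468 CPM in Lmo7-/- cells (-1.90 and -1.41). The others were the T cell antigen Cd7 (-1.83 and -1.55), the nuclear long noncoding RNA Neat1 (-1.83 and -1.63), Alox5ap of leukotriene synthesis (-2.13 and -1.55), Irak2 of interleukin-1 and Toll-like receptor signaling (-1.78 and -1.42), the DNA glycosylase Neil1 (-1.48 and -1.66) and the CaM kinase inhibitor Camk2n1 (-1.63 and -1.73).

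**Figure D2:**
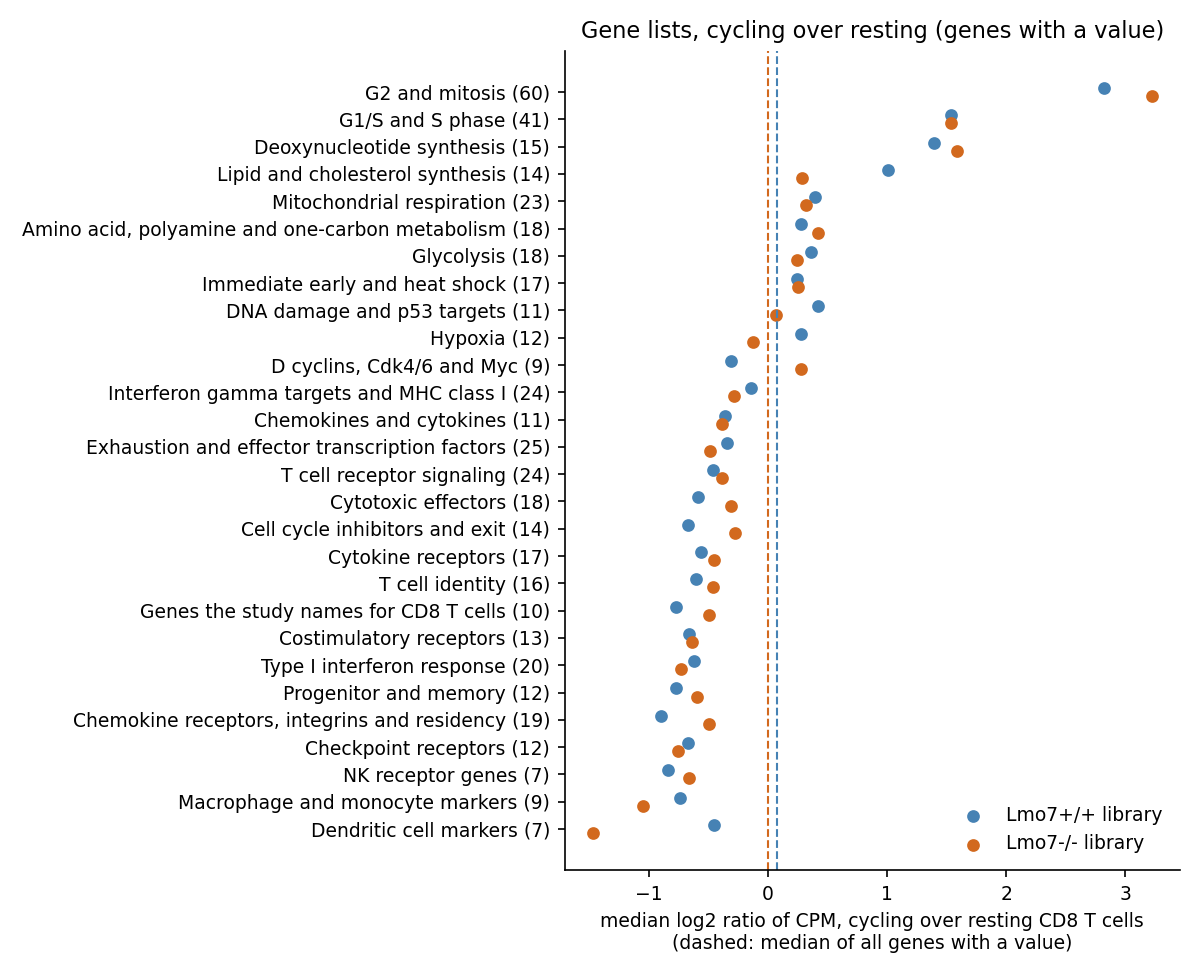
Median log2 ratio of CPM in cycling over resting CD8 T cells (x axis) for 28 gene lists (y axis, with the number of genes with a value), as 1 point per library. The dashed lines mark the medians of all measured genes, 0.08 in Lmo7+/+ and 0.00 in Lmo7-/-. Among lists with at least 10 measured genes, G2 and mitosis lies farthest to the right at 2.82 and 3.22, then G1/S and S phase and deoxynucleotide synthesis, while effector, checkpoint and T cell identity lists lie left of 0 in both libraries.

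Metabolic lists had medians above those of all genes, and the counts of their members stand beside 4.8% of all measured genes at least 2-fold higher and 1.07% lower in both libraries. The lipid and cholesterol synthesis list had medians of 1.01 in Lmo7+/+ and 0.29 in Lmo7-/-, and 2 of its 14 measured genes were at least 2-fold higher in both libraries, Idi1 (2.14 and 1.36) and Fdps (1.09 and 1.57) of isoprenoid synthesis. None of the 18 glycolysis genes and none of the 23 respiration genes passed 2-fold in both libraries, with medians of 0.36 and 0.24 and of 0.40 and 0.32. Ldha, lactate dehydrogenase, was at 778 CPM in resting and 1178 CPM in cycling Lmo7+/+ cells and at 923 and 1160.0 CPM in Lmo7-/- cells. In the list of amino acid, polyamine and one-carbon metabolism 3 of 18 genes were at least 2-fold higher in both, Phgdh (1.43 and 1.10) and Psat1 (1.29 and 1.05) of serine synthesis and Asns (2.34 and 1.15) of asparagine synthesis. Psph, the last enzyme of serine synthesis, gave -0.06 and 0.23.

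The share of CD8-gated cells that were cycling was close in the 2 genotypes. It was 112 of 284 in Lmo7+/+ (39.4%, 33.7 to 45.4%) and 171 of 466 in Lmo7-/- (36.7%, 32.3 to 41.3%), a difference of -2.74 percentage points with a Newcombe interval of -9.92 to 4.35. After each cell was thinned to 1500 UMIs, with shallower cells left out, the shares were 28.4% and 28.2%. At 2500 UMIs they were 45.8% and 49.3%. Cycling CD8 T cells made up 0.827% of all kept Lmo7+/+ cells and 1.44% of kept Lmo7-/- cells, a difference of 0.615 points (0.355 to 0.884). CD8-gated cells as a whole were 2.1% and 3.93% of kept cells. Shares of kept cells depend on what else was in the library and on the sort, and whether mice or library preparation set them cannot be told apart. For comparison, 13 of 37 Lmo7+/+ and 18 of 45 Lmo7-/- T cells with Foxp3, the regulatory T cell factor, passed the same cycle gate, and 40.3% and 32.8% of macrophage-gate cells. The macrophage-gate shares were not thinned. Those cells were deeper, with medians of 5338.5 and 4630 UMIs against 2825.5 and 2597.5 in CD8-gated cells, so the shares are not on a like footing.

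Lmo7 itself could not check the labels in these cells. It had 4 counts in the 112 Lmo7+/+ members (5.96 CPM, 1.62 to 15.3) and 1 in the 171 Lmo7-/- members (1.16 CPM, 0.0294 to 6.47). Macrophage-gate cells held 73 Lmo7 counts in Lmo7+/+ (2.80 CPM, 2.19 to 3.51) and 64 in Lmo7-/- (2.50 CPM, 1.93 to 3.19), intervals that overlap. The count rests on tags near transcript ends, and which part of the gene the knockout removes is not given in the sources used here. Genotypes are therefore those of the library labels.

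Between the genotypes, cycling CD8 T cells of the library labelled Lmo7-/- held more granzyme RNA per UMI. Of 7586 genes measured in the members, 139 (1.83%) were at least 2-fold higher and 360 (4.75%) at least 2-fold lower in Lmo7-/-, and the median gene had a log2 ratio of -0.06. The count of lower genes was smaller without some cells, at 213 without those with at least 5 tumor, fibroblast or endothelial UMIs, 166 without the deepest 5% of CD8-gated cells and 138 without cells holding UMIs of other cell types. In the cytotoxic effector list 7 of 19 measured genes were at least 2-fold higher and none lower, with a median of 0.55. The 7 were Gzma, Gzmb, Gzmc, Gzmd, Gzme, Gzmf and Tnf. The list summed to 4406 CPM in Lmo7+/+ and 8195 CPM in Lmo7-/- members, a log2 ratio of 0.90 (0.83 to 0.96). The T cell identity list was also higher in Lmo7-/- members, with a log2 ratio of its sum of 0.26 (0.20 to 0.32), and its part in the effector ratios was not tested. In resting cells the effector list summed to 7591 CPM in Lmo7+/+ and 10284.5 CPM in Lmo7-/- (log2 0.44, 0.37 to 0.51). The effector list, the granzymes in particular, was chosen with earlier results of these data known, so this direction is no independent evidence.

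Granzymes are serine proteases that cytotoxic lymphocytes store in granules and pass into target cells through perforin pores. Gzmb, which cleaves caspases and Bid, had 562 counts in Lmo7+/+ (837 CPM) and 1943 in Lmo7-/- members (2256 CPM), a log2 ratio of 1.43 (1.29 to 1.57). In resting cells Gzmb was at 1296 and 2007 CPM, a log2 ratio of 0.63. The Lmo7+/+ members thus had the lowest Gzmb level of the 4 sets of CD8 T cells, and the Lmo7-/- members the highest. Macrophage-gate cells of the 2 libraries held Gzmb at 0.842 and 1.21 CPM. Thinned to 1500 UMIs, at least 1 Gzmb UMI was found in 42.6% (33.1 to 52.5%) of Lmo7+/+ and 61.0% (53.1 to 68.5%) of Lmo7-/- members, and in 64.3% and 71.3% before thinning. The thinned shares in macrophage-gate cells, whose median depth was 5338.5 and 4630.0 UMIs, were 0.102% and 0.138%.

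A cluster of granzyme genes next to Gzmb on chromosome 14 showed larger ratios from fewer cells. In GRCm38 it runs on the minus strand from Gzme (chr14:56117626-56120625) through Gzmd (chr14:56129556-56132608), Gzmg, Gzmn, Gzmf (chr14:56205263-56211417) and Gzmc (chr14:56231441-56234656) to Gzmb (chr14:56258838-56262260). Gzmf went from 105 to 747 counts between Lmo7+/+ and Lmo7-/- members (156 and 867 CPM, log2 2.47, 2.18 to 2.78), in 16 and 41 cells. Gzmc went from 64 to 377 counts (95.3 and 438 CPM, log2 2.20, 1.81 to 2.61), in 15 and 38 cells. Gzmd went from 18 to 217 counts in 4 and 14 cells (log2 3.23, 2.54 to 4.01), and Gzme from 27 to 130 in 3 and 20 cells (1.91, 1.30 to 2.56). These paralogs are alike in sequence, so reads may be shared among them and the split between genes is uncertain. Lmo7 lies on the same chromosome, farther along (chr14:101729957-101934710), and whether this position bears on the ratios was not tested. The values rest on few cells: 1 cell gave 48.6% of the Gzmf counts in Lmo7+/+ and another 19.4% in Lmo7-/-, and 74.1% of the Lmo7+/+ Gzme counts came from a single cell. Without the top cell of each library the log2 ratios were 3.12 for Gzmf, 2.30 for Gzmc, 3.83 for Gzmd and 3.52 for Gzme. The lowest ratios of any alternative were 2.1 for Gzmf, 2.15 for Gzmd and 1.26 for Gzme, with a cycle gate of 3 UMIs, and 1.40 for Gzmc, without the deepest 5% of CD8-gated cells. Resting cells gave 0.69 for Gzmf, 1.30 for Gzmc, 4.55 for Gzmd and 3.91 for Gzme. A single Lmo7+/+ resting cell held 160 of the 254 Gzmf counts there, and without the top resting cell of each library, a choice made after seeing the data, the ratios were 1.92 for Gzmf, 1.84 for Gzmc, 5.27 for Gzmd and 4.73 for Gzme, the last 2 from 2 and 3 Lmo7+/+ counts.

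**Figure D3:**
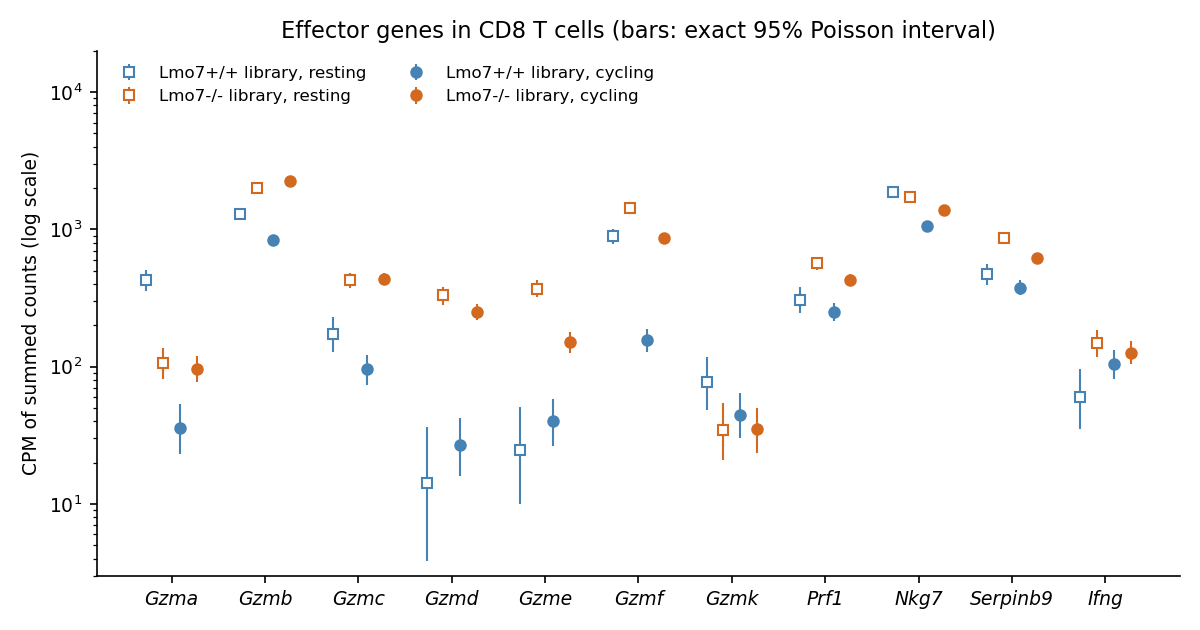
Levels of 11 effector genes (x axis) in CPM of summed counts on a log axis (y axis), with exact Poisson 95% intervals, in resting (squares) and cycling (circles) CD8 T cells of each library. For Gzmb, Gzmc, Gzmd, Gzme and Gzmf the Lmo7-/- cycling cells lie above the Lmo7+/+ cycling cells with intervals that do not overlap, and for Ifng and Gzmk the intervals of the cycling cells overlap.

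Per cell, granzyme RNA was uneven in both libraries. Summed over the granzyme genes, the median member held 3.77 UMIs per 10000 in Lmo7+/+ and 10.9 in Lmo7-/-, and the highest member 169 and 524. At least 5 granzyme UMIs were counted in 34.8% and 52.0% of members, and 32 and 39 members held none. For the cluster genes from Gzmc to Gzmg the pattern was sparser, with 0 UMIs in 87 of 112 and 107 of 171 members and at least 5 in 10 and 38. The distributions overlap up to the highest Lmo7+/+ member, above which 13 of the 171 Lmo7-/- members lie, and cells of 1 library are not replicates.

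**Figure D4:**
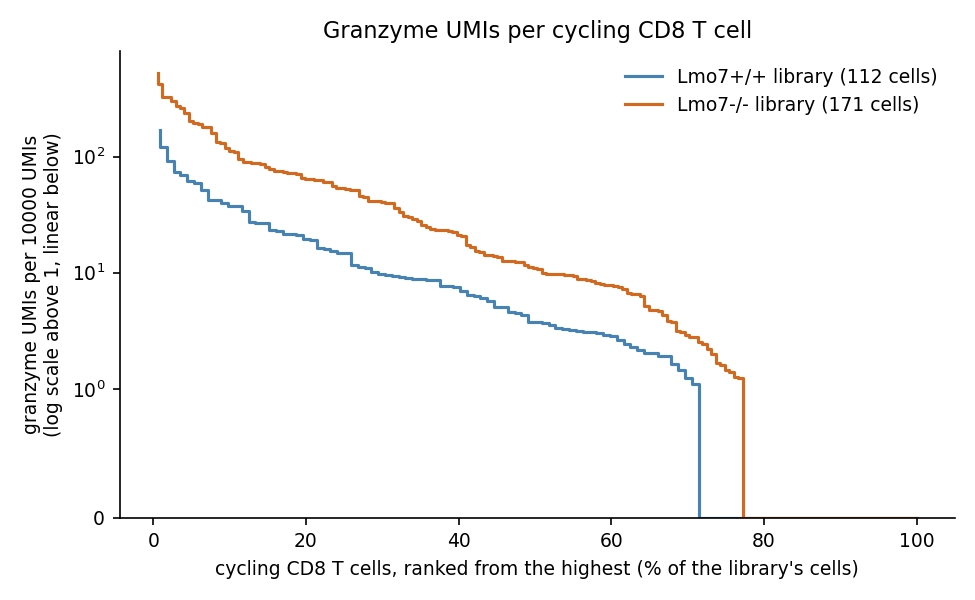
Granzyme UMIs per 10000 UMIs of the cell (y axis, log scale above 1 and linear below) in every cycling CD8 T cell, ranked from the highest within its library (x axis, percent of the library's cells), as 1 line per library. The Lmo7-/- line starts at 524 and the Lmo7+/+ line at 169, and each drops to 0 where the 39 and 32 cells with no granzyme UMI begin.

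The rest of the effector list varied in size and direction. Prf1, the pore-forming perforin (chr10:61297833-61304680), was at 252 CPM in Lmo7+/+ and 429.6 CPM in Lmo7-/- members (log2 0.77, 0.51 to 1.04). Serpinb9, the inhibitor that shields the killer cell from its own granzyme B, was at 377 and 622 CPM (0.72, 0.51 to 0.95), and the granule protein gene Nkg7 at 1054 and 1384 CPM (0.39, 0.26 to 0.53). Ifng, which encodes interferon gamma, had 70 and 109 counts, with an interval that spanned 0 (0.28, -0.17 to 0.73). Gzma, the tryptase-like granzyme (chr13:113093825-113100981), had 24 and 83 counts (1.43, 0.76 to 2.15), a ratio that fell below 2-fold under several alternatives, to 0.11 with a strict cell filter that asked for more genes and UMIs per cell and 0.17 with a cycle gate of 1 UMI, and in resting cells it was lower in Lmo7-/-, with a log2 ratio of -2.0. Tnf had 4 and 19 counts (1.89, 0.30 to 3.90). Gzmk, the granzyme of memory-like cells, had 30 counts in each library (-0.36, -1.14 to 0.42). Lamp1, a membrane protein of lytic granules and of lysosomes in all cells, was lower in Lmo7-/- members, at 228 and 115 CPM (-0.99, -1.37 to -0.61).

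Checkpoint receptors restrain T cells after activation. The checkpoint list also held genes that are not such receptors, among them the galectin gene Lgals3 and the ligand gene Cd200. Of its 13 measured genes 0 were at least 2-fold higher in Lmo7-/- members and 2 lower, against 1.83% and 4.75% of all measured genes. Pdcd1 was at 363 CPM in Lmo7+/+ and 500.4 CPM in Lmo7-/- members (log2 0.46, 0.23 to 0.69), Ctla4 at 93.8 and 139 CPM (0.57, 0.12 to 1.03) and Havcr2, which encodes TIM-3, at 62.5 and 97.5 CPM (0.64, 0.09 to 1.21). Macrophage-gate cells held Havcr2 at 113 and 139 CPM, above the members, and the part of their RNA in the Havcr2 ratio was not tested. Lag3 was level, at 71.5 and 70.8 CPM (-0.01, -0.58 to 0.56). The 2 genes at least 2-fold lower were Btla, with 14 and 6 counts, and Cd200, with 46 and 25. The list median was -0.01, against -0.06 for all measured genes, and its sum was 1289.6 CPM in Lmo7+/+ and 1557 CPM in Lmo7-/- members, a log2 ratio of 0.27 (0.15 to 0.40). In macrophage-gate cells the list summed to 2708 and 3125 CPM, above the members. The part of macrophage RNA in the members' sum was not tested.

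Gzmb and Pdcd1 were read together in members thinned to 1500 UMIs, 108 in Lmo7+/+ and 164 in Lmo7-/-. Both were seen in 25% of Lmo7+/+ and 34.1% of Lmo7-/- members, Gzmb without Pdcd1 in 17.6% and 26.8%, and Pdcd1 without Gzmb in 19.4% and 18.3%. In macrophage-gate cells a Pdcd1 UMI was seen in 0.0762% and 0.138% at the same depth. Neither Gzmb nor Pdcd1 was seen in 38.0% (28.8 to 47.8%) and 20.7% (14.8 to 27.7%) of members. At least 1 UMI of Gzmc to Gzmg was seen in 13.9% (7.99 to 21.9%) and 26.8% (20.2 to 34.3%). In resting cells the shares were 6.67% (2.49 to 13.9%) and 35.5% (28.3 to 43.3%). Macrophage-gate cells held a Gzmc UMI in 0.0254% and 0.0460% and a Gzmf UMI in 0.0762% and 0.115%. At this depth a missing UMI does not show that a cell lacked the RNA.

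Cell cycle genes were compared between the genotypes next, beside 1.83% of all measured genes at least 2-fold higher and 4.75% lower. Members of both libraries had to pass the same cycle gate, so a like level of these genes is partly set by the selection and is given as a description. None of the 46 G1/S and S phase genes, the 16 deoxynucleotide genes or the 67 genes of G2 and mitosis was 2-fold apart in either direction. Of 8 measured histone genes 1 was at least 2-fold higher in Lmo7-/- and none lower, Hist1h4i with 7 and 20 counts (log2 1.16, -0.14 to 2.64). The histone median was 0.73, against -0.06 for all genes, and the histone sum was 332 and 390 CPM (0.23, -0.02 to 0.48). The summed level was 4738 CPM in Lmo7+/+ and 4914 CPM in Lmo7-/- members for G1/S and S phase (log2 0.05, -0.01 to 0.12) and 11661 and 13587 CPM for G2 and mitosis (0.22, 0.18 to 0.26). The latter sum is over the full 67-gene list. The 61-gene list used per cell leaves out H2afz, H2afx, Stmn1, Tuba1b, Tubb4b and Hmgb2. It held 3949 of the 7831 Lmo7+/+ counts and 6026 of the 11702 Lmo7-/- counts. Ube2c, a ubiquitin-conjugating enzyme of mitotic exit, was at 0.57 (0.30 to 0.85). Of the gate genes, Cdk1 had a log2 ratio of 0.67 (0.34 to 0.99). Ccnd1, a D cyclin, was at 713 CPM in Lmo7+/+ and 361 CPM in Lmo7-/- members (-0.98, -1.19 to -0.77), and Ccnd2 at 307 and 214 CPM (-0.52, -0.82 to -0.23).

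Receptors for survival and tissue signals gave a mixed picture. Il7r, the interleukin-7 receptor of long-lived T cells, had 29 and 90 counts (log2 1.27, 0.66 to 1.93) and Satb1, a chromatin organizer of thymocytes and naive T cells, 10 and 72 counts in 7 and 49 cells (2.49, 1.53 to 3.61), the 2 of 14 progenitor and memory genes at least 2-fold higher, against 1.83% of all measured genes. S1pr1, the tissue exit receptor, with 28 and 12 counts, and Dapl1, with 21 and 12, were the 2 at least 2-fold lower, against 4.75%, and Tcf7 had 13 and 16 counts. Among cytokine receptors 2 of 19 were higher, Il7r and Il12rb1 (8 and 21 counts). Icos, a costimulatory receptor, was at 313 and 555 CPM (0.83, 0.59 to 1.07), Klrc1, the inhibitory receptor NKG2A, at 241 and 452 CPM (0.90, 0.64 to 1.18), and Cxcr6, a receptor of tumor-resident T cells, at 198 and 313 CPM (0.66, 0.36 to 0.97). None of the 14 costimulatory, 8 NK receptor, 28 transcription factor or 24 T cell receptor signaling genes measured was 2-fold apart.

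Where the 2 libraries together gave 50 or more counts, the 8 genes with the highest Lmo7-/- over Lmo7+/+ ratio were Gm42031, Ccl2, Gzmd, Satb1, Gzmf, Gzmc, Gzme and Ccl3. The predicted gene Gm42031 had 2 and 54 counts (log2 4.40, 2.47 to 7.48). Ccl2, a monocyte chemoattractant, had 4 and 66 counts (3.69), but 62.1% of the Lmo7-/- counts came from 1 cell, and without the top cells the ratio was 2.70. Ccl3, a chemokine of activated T cells and macrophages, had 36 and 131 counts (1.5, 0.96 to 2.08). The 8 with the lowest ratios are mostly known from matrix and vessel cells, and apart from Col18a1 a single Lmo7+/+ cell gave most of the Lmo7+/+ counts of each: Plvap (67 and 1 counts), Selp (72 and 0), Postn (54 and 5), Acta2 (47 and 6), Dnase1l3 (63 and 9), Col4a1 (54 and 8), Fbln2 (133 and 20) and Col18a1 (73 and 13). A single cell gave all 67 Plvap and all 72 Selp counts and 53 of the 54 Col4a1 counts. Of its 18021 UMIs, 207 were of the tumor, fibroblast and endothelial list. Another, with 453 UMIs of that list, gave 40 of the Postn, 35 of the Acta2 and 80 of the Fbln2 counts. This cell was the deepest Lmo7+/+ member, with 37292 UMIs. Selp had 0 counts in Lmo7-/-, so its ratio is a bound against a floor of 3 counts, a log2 ratio of -4.94 or lower.

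**Figure D5:**
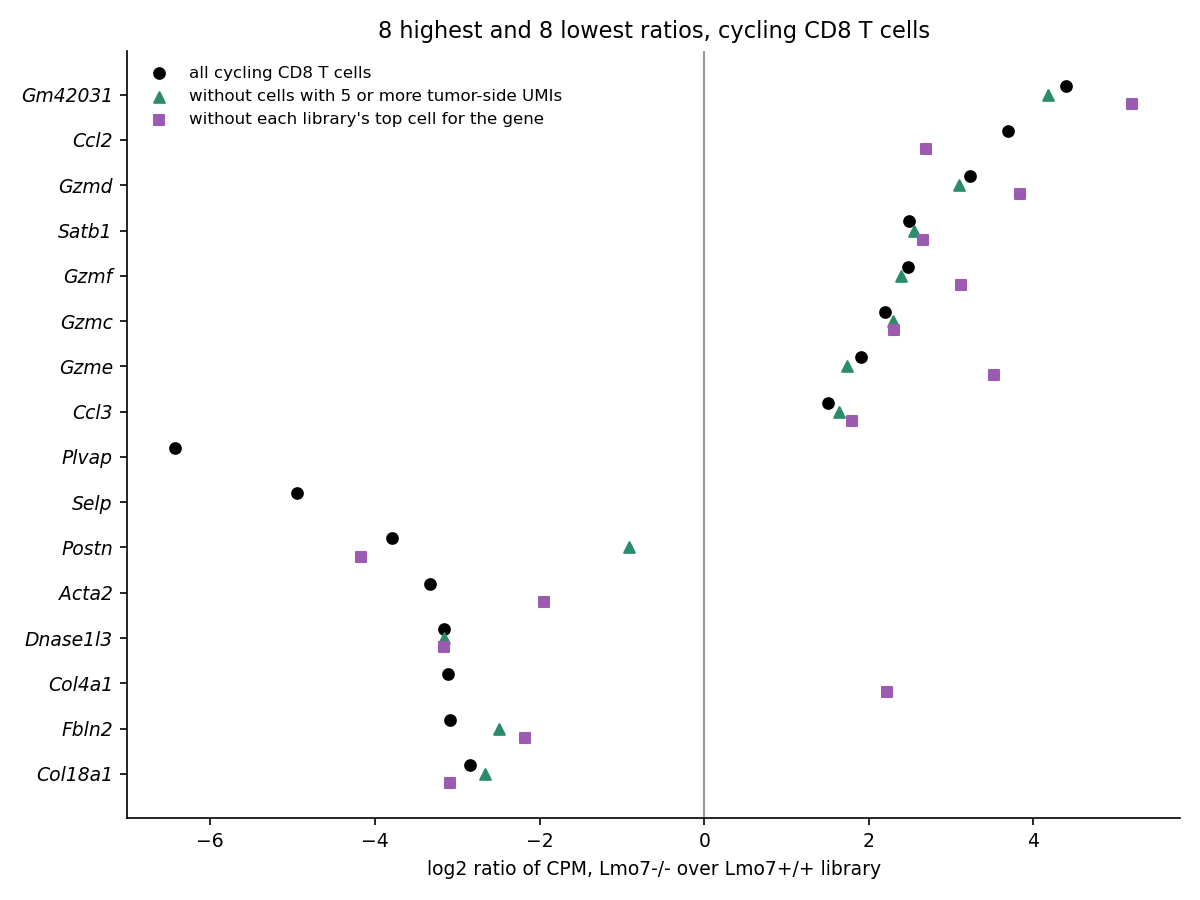
Log2 ratio of CPM in Lmo7-/- over Lmo7+/+ cycling CD8 T cells (x axis) for the 8 highest and 8 lowest genes (y axis), over all members (circles), without members with at least 5 tumor, fibroblast or endothelial UMIs (triangles) and without each library's top cell for the gene (squares). Where too few counts remained no symbol is drawn. The granzymes keep ratios above 0 under each, and Col4a1 moves from -3.11 to 2.23 without its top cells.

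With the members that held at least 5 tumor, fibroblast or endothelial UMIs left out, 102 Lmo7+/+ and 158 Lmo7-/- cells remained. Of 6592 genes then measured 126 were at least 2-fold higher in Lmo7-/- and 213 at least 2-fold lower, with a median log2 ratio of -0.06. The highest were Gm42031 (4.18), Gzmd (3.09), Satb1 (2.55), Gzmf (2.39), Gzmc (2.29), Gzme (1.73), Ccl3 (1.63) and Gzmb (1.39), so Gzmb took the place of Ccl2 in that list. Of 18 effector genes measured there 5 were at least 2-fold higher and 1 lower, with a median of 0.46. Among the lowest were Dnase1l3 (-3.16), the dendritic cell integrin Itgax (-1.90), the MHC class II gene H2-Eb1 (-1.40) and Lamp1 (-1.40). A single Lmo7+/+ cell that stayed in gave 49 of the 63 Dnase1l3 counts, and with no C1q UMI allowed the Dnase1l3 ratio was -0.58. The dendritic cell sum also differed between the libraries, as given above, and the part of other cells' RNA in the lower genes was not tested.

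T cells with Cd4 or Foxp3 UMIs, 78 in Lmo7+/+ and 92 in Lmo7-/-, give the same genes in other T cells of the same libraries. Gzmb had 138 and 375 counts there (log2 0.94), Gzmc 0 and 25, and Gzmd and Gzmf 0 in both. Gzma, with 29 and 0 counts, and Ifng, with 58 and 28 (-1.55, -2.26 to -0.88), had the opposite direction there. Prf1 had 6 and 15 counts (0.82, -0.63 to 2.47). Klrc1 gave 0.06 (-0.74 to 0.89) and Pdcd1 -0.50 (-1.04 to 0.04). Of other checkpoint genes, Ctla4 gave 0.51 (0.18 to 0.85) and Lag3 0.90 (0.07 to 1.80). Havcr2 gave 0.96 (-0.27 to 2.33) and Tigit 0.63 (-1.01 to 2.51). The difference between these ratios and those of the members was not tested, since each genotype is 1 library.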

How the data were processed

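Single-cell RNA of live MC38 tumor cells was measured by the authors in 1 library per genotype. The deposited values are UMI counts per gene and droplet, not normalized. The submitters' processing notes name Cell Ranger 2.1.1 and mm10, and the matrix headers give software version 3.0.0. The labels name about 10000 sorted cells as input, and the deposited matrices hold 16208 and 15163 barcodes with 98582479 and 80648345 UMIs.

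Counts were summed over cells and divided by the cells' total UMIs (CPM). Intervals (95%) were exact Poisson for counts, Clopper-Pearson for shares, Newcombe for differences of shares, and from the split of the counts for log2 ratios. With 1 library per genotype no test was run. A gene counted as measured at 20 or more counts over both sets compared, and as higher or lower at 2-fold. A floor of 3 counts stood for 0. Members and gene lists were chosen with earlier results of these data known. Genes were named by rule: the gate genes and Lmo7, the 4 most abundant and any 2-fold members of each list, the 8 highest and 8 lowest genotype ratios with at least 50 counts, the 10 highest and 10 lowest cycling over resting ratios, and the genes the study discusses for CD8 T cells. Some named genes (such as Prf1, Serpinb9, Cdkn1b, Mcm5, Tyms, Icos, Klrc1, Cxcr6, Ube2c, Fasn and Phgdh) were chosen after their values were seen. Of these, Mcm5, Tyms, Icos, Klrc1 and Phgdh also fall under the rule. A few results, among them members of the lists that this rule would name, are not reported here. Of 170 T cell receptor V genes in the files none reached 20 counts.

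Python 3.11.15, numpy 2.4.6, scipy 1.17.1, pandas 2.3.3 and matplotlib 3.10.9 were used, with edgeR 4.0.16 in R 4.3.3 for the TMM alternative only. The scripts were tested on simulated data. Gene positions are from GENCODE M21 (GRCm38), which listed 32158 of 32285 identifiers. Alternatives covered the cell filter, the gates, depth, scaling and the count minimum.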

Additional observations from a re-analysis of the deposited data

Results flagged for a closer look

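Opposite cycling over resting ratios were searched for only among genes of the lists and genes named by rule, with the gate genes left out. For 8 of these the ratio was at least 2-fold higher in either library and at least 2-fold lower in the other. Both intervals also had to exclude an unchanged level. The 8 are therefore not a count over all measured genes, and the difference between the libraries was not tested. Col1a1, a collagen of fibroblasts, had a log2 ratio of 3.22 in Lmo7+/+ and -1.11 in Lmo7-/-, and Col1a2 2.89 and -1.19. Fbln2 had 3.81 and -2.53, Sparc 1.94 and -1.38, Col18a1 1.04 and -1.82, and Selp at least 3.34 and at most -3.88, bounds against a floor of 3 counts. These 6 are genes of matrix or vessel cells, and single cells gave many of their counts in the members. Cxcl10, an interferon-induced chemokine, had -1.13 in Lmo7+/+ and 2.53 in Lmo7-/-. Hspa1a, a heat shock gene that also responds to tissue dissociation, had -3.44 and 1.30.

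Droplets that passed every gate but lay outside the cell filter, and so entered no comparison, numbered 7 in Lmo7-/- and 1 in Lmo7+/+.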

How the results depend on the processing

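No paired analysis was possible because the labels give no replicate numbers and each genotype is 1 library, so leaving out a replicate was not possible either. The share of CD8-gated cells in cycle (-8.59 to 3.58 points between genotypes) and the share of kept cells (0.382 to 0.740 points) moved by less than their counting intervals under all 11 alternatives. The log2 ratio of the effector sum was 0.76 with a cycle gate of 1 UMI, 0.78 with 3 UMIs, 0.82 with a CD3 gate of 4 UMIs, 0.81 without cells holding UMIs of other cell types, 0.75 without the deepest 5% of CD8-gated cells and 0.99 with TMM scaling, and the checkpoint sum was 0.46 without cells holding UMIs of other types. Genes at least 2-fold higher in Lmo7-/- numbered 229 as a mean over cells, 29 with a minimum of 50 counts and 502 with 5. Those lower numbered 138 without cells holding UMIs of other types, 166 without the deepest 5%, 213 without cells with at least 5 tumor, fibroblast or endothelial UMIs, 88 with a minimum of 50 counts and 1100 with 5. Genes at least 2-fold higher in cycling than resting cells numbered 194 with no C1q UMI allowed, 143 without cells holding UMIs of other types, 132 with a minimum of 50 counts and 512 with 5. Those lower numbered 39, 23 and 187 in the last 3 of these. Fewer cells or genes entered most of these settings, which by construction changes a count. Of single genes, the Lmo7-/- over Lmo7+/+ ratio of Ccl5 was 0.35 (0.12 to 0.58) over all members and -0.10 without the deepest 5%, and that of Col4a1 -3.11 and 2.23 without its top cells. Dnase1l3 went from -3.17 to -0.58 with no C1q UMI allowed, and Postn from -3.79 to -0.91 or lower, a bound, without cells with at least 5 tumor, fibroblast or endothelial UMIs. For these 4 the cause was not tested. Gzma ranged from 0.11 to 2.50 and Gzmb from 1.08 to 1.67. The settings without cells with at least 5 tumor, fibroblast or endothelial UMIs and without top cells, resting ones included, were chosen after seeing the data. Depth limits genes under about 20 counts, whose intervals spanned several-fold.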

Other observations

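Interferon, stress and metabolic lists were also read between the genotypes in cycling CD8 T cells, where 1.83% of all measured genes were at least 2-fold higher in Lmo7-/- and 4.75% lower, beside which the counts below stand. In the type I interferon list none of 18 measured genes was at least 2-fold higher in Lmo7-/- and 2 were lower, Irf7 (83.4 and 32.5 CPM, log2 -1.36) and Ifi209 (-1.68), with a list median of -0.12. Of 25 interferon gamma and MHC class I genes Iigp1, an immunity-related GTPase, was higher with 9 and 31 counts (1.43) and Gbp6 lower (-1.08). Among 13 chemokine and cytokine genes Ccl3 and Cxcl10 were higher, Cxcl10 with 26 and 91 counts (1.45), and none was lower. None of 18 glycolysis, 23 respiration or 18 amino acid and one-carbon genes was 2-fold apart. In the lipid and cholesterol synthesis list none of 16 measured genes was at least 2-fold higher and 2 were lower. That list had a median of -0.36, against -0.06 for all genes, and summed to 1908 CPM in Lmo7+/+ and 1633 CPM in Lmo7-/- members (-0.22, -0.33 to -0.11). Its most abundant gene was the desaturase gene Scd2 (-0.06, -0.33 to 0.22), and the fatty acid synthase gene Fasn had 48 and 36 counts (-0.77, -1.44 to -0.12). The hypoxia target Car9 (-1.43) and the stress factor Atf3 (-1.24) were lower. In the p53 list the death receptor gene Fas was higher (1.30) and Gadd45g lower (-1.88).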
